A study of Homo sapiens with 8 samples.

Results

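The ABC genes examined here were the RefSeq protein-coding genes whose symbol begins with ABCA, ABCB, ABCC, ABCD, ABCE, ABCF or ABCG followed by a number. There were 46 of them among 20037 protein-coding genes, on 17 chromosomes, and 1 of the 46 is the read-through gene *ABCF2-H2BK1*, which shares its start with *ABCF2*. H3K27 acetylation (H3K27ac), a histone mark of active promoters and enhancers, was measured by ChIP-sequencing in MIA PaCa-2, an established line of human pancreatic ductal adenocarcinoma cells. Both cell lines compared carry the CRISPR activation machinery of the lentiMPHv2 and lentiSAMv2 lentiviral plasmids. MP2_HDAC1_OE has a guide RNA that activates the histone deacetylase gene *HDAC1*, and MP2_NTC has a non-targeting guide. Each condition is 1 stable line with 2 H3K27ac samples and 2 control samples, and each line has 1 deposited list of reproducible peaks over both of its samples. The study asked how *HDAC1* overexpression relates to resistance to several drugs, and the ABC genes include the classical drug-efflux pumps.

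ABC proteins bind ATP through a conserved cassette, and most of them use its hydrolysis to carry a substrate across a membrane. ABCB1 (P-glycoprotein), ABCG2 (BCRP) and several ABCC proteins (the multidrug resistance-associated proteins) export anticancer drugs, and others export lipids, sterols or bile salts, or work in mitochondria, peroxisomes and lysosomes. ABCE1 and the ABCF proteins have no membrane domain and act in translation.

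Peaks of both lists that shared at least 1 bp were merged into a region, and a region was unique to a line when all its peaks came from that line's list. A region belonged to an ABC gene when it lay within the gene or 10 kb either side, and it was at the gene start when it came within 1 kb of the start. For 36 of the ABC genes the start came from the RefSeq promoter table, and for the other 10, among them *ABCA4*, *ABCA8*, *ABCB4*, *ABCB5*, *ABCC1*, *ABCC3*, *ABCC8* and *ABCG1*, either end of the gene stood in for it. The rank of a peak is given as its percentile, the percent of the peaks in the same list with a lower signal, since the scaling of the signal between the lists is not known. With 1 list per line there was no replicate check of any difference between the lines, and no test was made. Intervals are 95% Wilson intervals and cover counting error only.

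The promoters below show what lay upstream of the starts on which the results turn. *ABCD3* and *ABCB6* had a region unique to MP2_HDAC1_OE at the start and *ABCA1* had one unique to MP2_NTC. *ABCE1* had the largest rank difference of a shared region at a start, *ABCC5* had the highest-ranked start of the drug-efflux genes, and *ABCC2* had regions on both sides of its start and none at it. Each sequence is the 250 bases before the start, 5′ to 3′ on the gene's own strand, from RefSeq on GRCh38.p14. Capitals mark motifs found on either strand: the GC box (GGGCGG), the CCAAT box (CCAAT), the TATA box (TATAAA) and the cyclic AMP response element (TGACGTCA).
*ABCD3*, chr1:94418139-94418388, plus strand: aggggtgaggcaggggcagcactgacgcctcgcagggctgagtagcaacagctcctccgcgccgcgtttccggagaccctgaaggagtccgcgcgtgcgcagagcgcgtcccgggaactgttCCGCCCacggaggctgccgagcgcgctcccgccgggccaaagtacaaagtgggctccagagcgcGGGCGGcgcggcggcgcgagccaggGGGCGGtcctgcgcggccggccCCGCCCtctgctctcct
*ABCB6*, chr2:219218959-219219208, minus strand: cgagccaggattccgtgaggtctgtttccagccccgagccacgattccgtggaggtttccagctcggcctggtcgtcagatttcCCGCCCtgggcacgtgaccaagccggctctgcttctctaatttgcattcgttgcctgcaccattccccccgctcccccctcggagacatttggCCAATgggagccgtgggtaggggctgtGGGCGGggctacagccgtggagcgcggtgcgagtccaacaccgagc
*ABCA1*, chr9:104928156-104928405, minus strand: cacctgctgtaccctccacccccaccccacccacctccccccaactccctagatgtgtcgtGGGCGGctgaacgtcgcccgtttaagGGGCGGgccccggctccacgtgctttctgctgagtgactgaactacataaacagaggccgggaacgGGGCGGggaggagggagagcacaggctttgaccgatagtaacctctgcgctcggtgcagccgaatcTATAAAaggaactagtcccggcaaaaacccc
*ABCE1*, chr4:145098061-145098310, plus strand: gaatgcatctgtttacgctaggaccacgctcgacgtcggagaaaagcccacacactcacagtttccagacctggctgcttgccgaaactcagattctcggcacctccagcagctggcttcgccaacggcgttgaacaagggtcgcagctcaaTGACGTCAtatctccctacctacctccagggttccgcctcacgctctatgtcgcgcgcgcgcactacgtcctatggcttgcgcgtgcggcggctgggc
*ABCC5*, chr3:184017885-184018134, minus strand: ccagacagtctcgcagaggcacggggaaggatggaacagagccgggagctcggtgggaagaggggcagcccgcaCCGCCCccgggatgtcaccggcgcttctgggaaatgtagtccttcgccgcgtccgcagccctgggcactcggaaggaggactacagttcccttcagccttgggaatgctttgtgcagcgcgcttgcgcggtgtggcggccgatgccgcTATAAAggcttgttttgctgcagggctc
*ABCC2*, chr10:99782390-99782639, plus strand: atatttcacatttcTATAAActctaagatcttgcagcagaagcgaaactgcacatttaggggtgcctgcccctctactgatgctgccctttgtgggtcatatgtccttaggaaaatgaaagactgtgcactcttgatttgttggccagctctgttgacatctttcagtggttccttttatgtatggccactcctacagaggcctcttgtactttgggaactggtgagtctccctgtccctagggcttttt
The *ABCD3* sequence held 4 GC boxes, *ABCB6* 2 GC boxes and a CCAAT box, and *ABCA1* 3 GC boxes and a TATA box. *ABCC5* held 1 GC box and a TATA box, *ABCE1* only the cyclic AMP response element and *ABCC2* only a match to TATAAA. The *ABCC2* match lay at the end of the sequence far from the start, whereas those of *ABCA1* and *ABCC5* lay close to it. Among the 300-base promoters of 15842 protein-coding genes, 250 bases before the start and 50 after it, 58.5% held a GC box, 36.4% a CCAAT box, 9.63% a TATA box and 2.59% a cyclic AMP response element.

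The lists held 25045 peaks in MP2_HDAC1_OE and 22569 in MP2_NTC, which merged into 18678 regions. They hold no read counts, so the depth behind each peak is unknown. The start of *HDAC1* held a shared region at percentile 93.9 in MP2_HDAC1_OE and 40.4 in MP2_NTC, and a second region unique to MP2_NTC at 45.2. Starts of 3 of 5 epithelial markers (*KRT8*, *KRT18* and *KRT19*, but neither *EPCAM* nor *CDH1*) and of both mesenchymal markers (*VIM* and *ZEB1*) had a region of either line. Those of 3 pancreatic exocrine and 3 leukocyte or endothelial markers had none. At the start of *KRT8* the region was unique to MP2_HDAC1_OE (percentile 50.5), and at that of *KRT19* it was unique to MP2_NTC (6.86). Away from its start, *CDH1* had a shared region within 10 kb of the gene (99.5 in MP2_HDAC1_OE and 95.6 in MP2_NTC).

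H3K27ac was found in the window of 28 of the 46 ABC genes, or 60.9% (46.5 to 73.6), beside 58.5% of all protein-coding genes. Of these, 14 (30.4% of the ABC genes, beside 25.5% of all protein-coding genes) had only shared regions, 10 had at least 1 region unique to MP2_HDAC1_OE, 2 (*ABCA1* among them) had at least 1 unique to MP2_NTC, and 2 (*ABCC3* and *ABCA10*) had both kinds. A region unique to MP2_HDAC1_OE was thus present at 12 ABC genes, or 26.1% (15.6 to 40.3), beside 21.5% of all protein-coding genes. A region unique to MP2_NTC was present at 4, or 8.70% (3.43 to 20.3), beside 19.0%. Both intervals included the share over all protein-coding genes. Among the 36 ABC genes with a placed start, 2 had a region unique to MP2_NTC, or 5.56% (1.54 to 18.1). The share was 19.9% of protein-coding genes with a placed start, outside that interval. The interval takes genes as independent and does not cover differences between samples of a line, so no conclusion is drawn from it. Over all 46 ABC genes the shares were closer when single peaks had to overlap by 50% of both (32.6% beside 35.3%). Of the 347 solute carrier (SLC) genes, the other large family of membrane transporters, 55.6% had a region, 20.5% one unique to MP2_HDAC1_OE and 19.0% one unique to MP2_NTC.

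The 18 ABC genes with no region of either line included *ABCB1* and *ABCG2*. They also included *ABCA4*, *ABCA6*, *ABCA8*, *ABCA9*, *ABCA12*, *ABCA13*, *ABCB4*, *ABCB5*, *ABCB11*, *ABCC6*, *ABCC9*, *ABCC12*, *ABCD2*, *ABCG5* and *ABCG8*. Some of these are known for particular tissues, such as *ABCB11*, the bile salt export pump of liver, and *ABCA4*, the retinoid transporter of the retina. *ABCG5* and *ABCG8* together export sterols from liver and intestine. Whether tissue bears on the lack of a region was not tested. The absence of a peak says only that no reproducible peak was listed there. ABC genes were long, with a median length of 78916.5 bp beside 24115 bp for protein-coding genes, and those with no region had a longer median (107684 bp) than those with one (49315.5 bp), whereas over protein-coding genes the order was the opposite (18897 and 27379 bp).

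**Figure D1:**
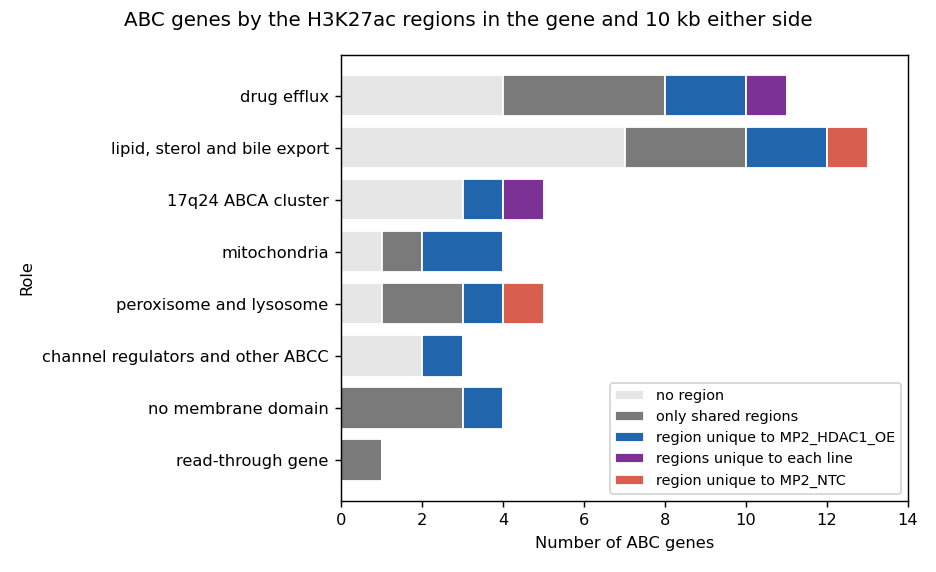
Number of ABC genes (horizontal axis) in each role group (vertical axis), divided by the kind of H3K27ac region in the gene and 10 kb either side. All 4 genes whose proteins have no membrane domain had a region. None was found at 4 of the 11 drug-efflux genes and 7 of the 13 lipid, sterol and bile genes, beside 41.5% of all protein-coding genes. The groups are small, and differences between roles were not tested.

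At the gene start, 18 ABC genes had a region, or 39.1% (26.4 to 53.5), beside 46.8% of all protein-coding genes. In 12 of them (26.1% of the ABC genes, beside 28.8%) the start had only shared regions. In 3 (6.52% of the ABC genes, beside 10.3%) it had a region unique to MP2_HDAC1_OE (*ABCD3*, *ABCB6* and *ABCF3*). In 3 (6.52%, beside 8.88%) it had one unique to MP2_NTC (*ABCA1* and *ABCC3* among them). The starts of the 4 genes without a membrane domain and of 3 of the 4 mitochondrial genes had a region. So did those of 2 of the 13 lipid, sterol and bile genes and none of the 5 genes of the ABCA cluster on chromosome 17. These groups are small, and differences between them were not tested.

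**Figure D2:**
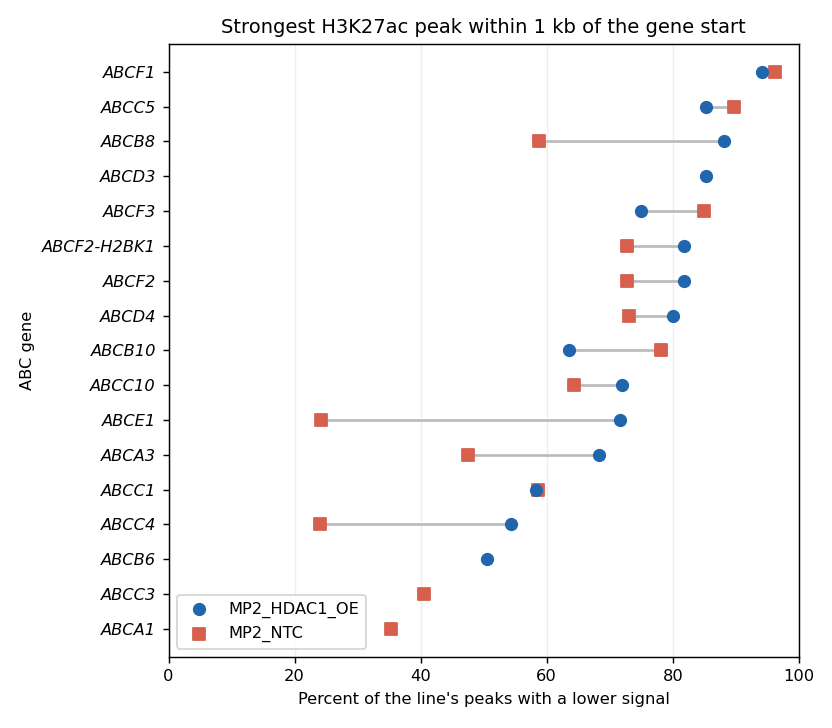
Percentile of the strongest H3K27ac peak within 1 kb of the start (horizontal axis) for 17 of the 18 ABC genes with a region there (vertical axis). Circles are MP2_HDAC1_OE, squares are MP2_NTC and a line joins them where both lists have a peak. *ABCF1* ranked highest in both lines, and *ABCD3*, *ABCB6*, *ABCC3* and *ABCA1* had a peak in 1 line alone.

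Of the 11 drug-efflux genes, *ABCC5* had the strongest H3K27ac at its start. *ABCC5* exports cyclic nucleotides and nucleotide analogs. Its shared region (chr3:184017502-184018663) ranked at percentile 85.3 in MP2_HDAC1_OE and 89.8 in MP2_NTC, with signals of 74.5 and 89.2. *ABCC10*, which carries taxanes among other drugs, had a shared region at its start (chr6:43427099-43428070) at percentile 71.9 in MP2_HDAC1_OE and 64.3 in MP2_NTC. Its peaks were unique to each line when an overlap of 50% of both was required. *ABCC1*, the founding multidrug resistance-associated protein, had a shared region within 1 kb of a gene end (chr16:15949476-15950695) at percentiles 58.3 and 58.6. These starts kept nearly the same rank in both lines, with differences from -4.52 to 7.61 points for the 3 genes.

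*ABCC4*, which exports nucleotide analogs and prostaglandins, differed more between the lists. The region at its start (chr13:95300731-95302088) was shared, at percentile 54.3 in MP2_HDAC1_OE and 24.02 in MP2_NTC. It thus ranked 30.2 points higher in MP2_HDAC1_OE. The peaks of the lines overlapped only in part at this start, and they were unique to each line when an overlap of 50% of both was required. *ABCC1* also had a shared region inside the gene, 71966 bp from the nearer end, that ranked lower in MP2_HDAC1_OE (30.1) than in MP2_NTC (43.1).

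*ABCC2*, which exports drug conjugates and bilirubin glucuronides, had no region at its start and 4 regions around it. A shared region 1470 bp upstream ranked at percentile 62.7 in MP2_HDAC1_OE and 58.0 in MP2_NTC. The other 3, unique to MP2_HDAC1_OE, lay 5556 bp upstream (28.2), 1632 bp inside the gene (55.6) and 62776 bp inside it (38.0). All 4 lay nearer to the start of *ABCC2* than to that of another protein-coding gene.

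*ABCC3*, an exporter of organic anions and drug conjugates, was the only drug-efflux gene with regions unique to MP2_NTC. A region at one end of the gene (chr17:50634549-50635580) had MP2_NTC peaks up to percentile 40.5, and a second, 5802 bp from that end, was at 37.0. The nearest MP2_HDAC1_OE peaks were 24402 and 18480 bp away. Further inside the gene, an MP2_HDAC1_OE peak at percentile 13.2 and an MP2_NTC peak at 68.4 lay 162 bp apart and were counted as 2 unique regions. *ABCC11* had 1 region unique to MP2_HDAC1_OE, at percentile 76.1 and 2145 bp from its start, which overlapped the neighbouring gene *LONP2*. *ABCB1*, *ABCB5*, *ABCC6* and *ABCG2* had no region.

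Of the 13 lipid, sterol and bile genes, 6 had a region, beside 58.5% of all protein-coding genes. *ABCA1*, the cholesterol efflux pump that loads high-density lipoprotein, had a single region, at its start (chr9:104927109-104927928) and unique to MP2_NTC. Its peak was at percentile 35.3 with a signal of 41.4, and the nearest MP2_HDAC1_OE peak was 40369 bp away. *ABCA7*, a phospholipid transporter, had the highest-ranked unique region of any ABC gene. That region (chr19:1042381-1043129) was unique to MP2_HDAC1_OE at percentile 95.9 and lay 2274 bp inside the gene. The nearest MP2_NTC peak was 13603 bp away. Its other 2 regions were beyond the gene and nearer to *ARHGAP45*, 1 unique to MP2_HDAC1_OE (46.0) and 1 shared (37.1 in MP2_HDAC1_OE and 13.9 in MP2_NTC).

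*ABCA3*, which packs surfactant lipids into lamellar bodies, had a shared region at its start (chr16:2339574-2340425) at percentile 68.3 in MP2_HDAC1_OE and 47.5 in MP2_NTC. A second shared region in its window overlapped *RNPS1* and ranked at 88.2 and 43.2. *ABCA2*, an endolysosomal lipid transporter, had 1 weak region unique to MP2_HDAC1_OE, 1349 bp inside the gene at percentile 14.6. *ABCG1*, a sterol exporter, had 1 shared region inside the gene (42.0 and 49.7), and *ABCG4*, a sterol exporter of brain, had 1 shared region (80.8 and 92.4) that lay 401 bp from *NLRX1*.

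In the ABCA cluster on chromosome 17, where *ABCA5*, *ABCA6*, *ABCA8*, *ABCA9* and *ABCA10* lie side by side, all regions were unique to a line and all were ranked low. *ABCA10* held 3 regions unique to MP2_HDAC1_OE, at percentiles 12.4, 7.61 and 34.2, and 1 unique to MP2_NTC at percentile 20.6. The region at 34.2 also fell within 10 kb of *ABCA5*. No region of the cluster lay at a start.

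Of the mitochondrial genes, *ABCB8*, linked to iron export and also a subunit of a potassium channel, had a shared region at its start (chr7:151028154-151030089). Its peaks were unique to each line when an overlap of 50% of both was required. The region ranked at percentile 88.1 in MP2_HDAC1_OE and 58.8 in MP2_NTC. *ABCB10*, which acts in heme metabolism, showed the opposite order at its start, with 63.6 in MP2_HDAC1_OE and 78.1 in MP2_NTC. *ABCB6*, a porphyrin transporter, had a region at its start (chr2:219218247-219219287) unique to MP2_HDAC1_OE at percentile 50.5, and the nearest MP2_NTC peak was 10478 bp away. The other regions of *ABCB10* and *ABCB6* lay nearer to *NUP133*, *ZFAND2B* and *ATG9A*. The *ABCB10* region unique to MP2_HDAC1_OE, at percentile 93.6 beside *NUP133*, was 31 bp from an MP2_NTC peak.

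*ABCD3*, the most abundant transporter of the peroxisomal membrane, had the highest-ranked unique region at a start. Its only region (chr1:94417920-94418955) overlapped the start and consisted of MP2_HDAC1_OE peaks up to percentile 85.2, with a signal of 74.5. The nearest MP2_NTC peak was 92576 bp away. The outer end of the annotated gene lay 33258 bp from this start and had no region within 1 kb. *ABCD4*, the lysosomal cobalamin transporter, had a shared region at its start (80.0 and 73.1). *ABCB9*, a lysosomal peptide transporter, had 2 shared regions. One (98.2 and 91.9) covered both the outer end of the annotated *ABCB9* gene, 8651 bp from the start used here, and the start of *OGFOD2*, and the other (18.1 and 77.4) overlapped *ARL6IP4*. *ABCD2* had none.

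*ABCF1*, which acts in translation initiation, had the highest-ranked start of all ABC genes in both lines at the starts used here. Its region (chr6:30570576-30571752) was at percentile 94.1 in MP2_HDAC1_OE and 96.2 in MP2_NTC. *ABCE1*, which splits ribosomes for recycling, had a region at its start (chr4:145097700-145099159) at percentile 71.6 in MP2_HDAC1_OE and 24.2 in MP2_NTC. This region also overlapped *ANAPC10*, so the mark cannot be assigned to 1 of the 2 genes. The start shared by *ABCF2* and *ABCF2-H2BK1* was at 81.8 and 72.8. *ABCF3* had a shared region at its start (75.03 and 84.9) and, 142 bp from an MP2_NTC peak, a weaker one unique to MP2_HDAC1_OE (25.02).

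Of the 3 remaining ABCC genes, only *ABCC8*, the sulfonylurea receptor that regulates the ATP-sensitive potassium channel, had a region. It was unique to MP2_HDAC1_OE at percentile 63.4, the nearest MP2_NTC peak was 180455 bp away, and it overlapped *KCNJ11*, which encodes the pore of the same channel. *ABCC9*, the other sulfonylurea receptor, and *ABCC12* had none.

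**Figure D3:**
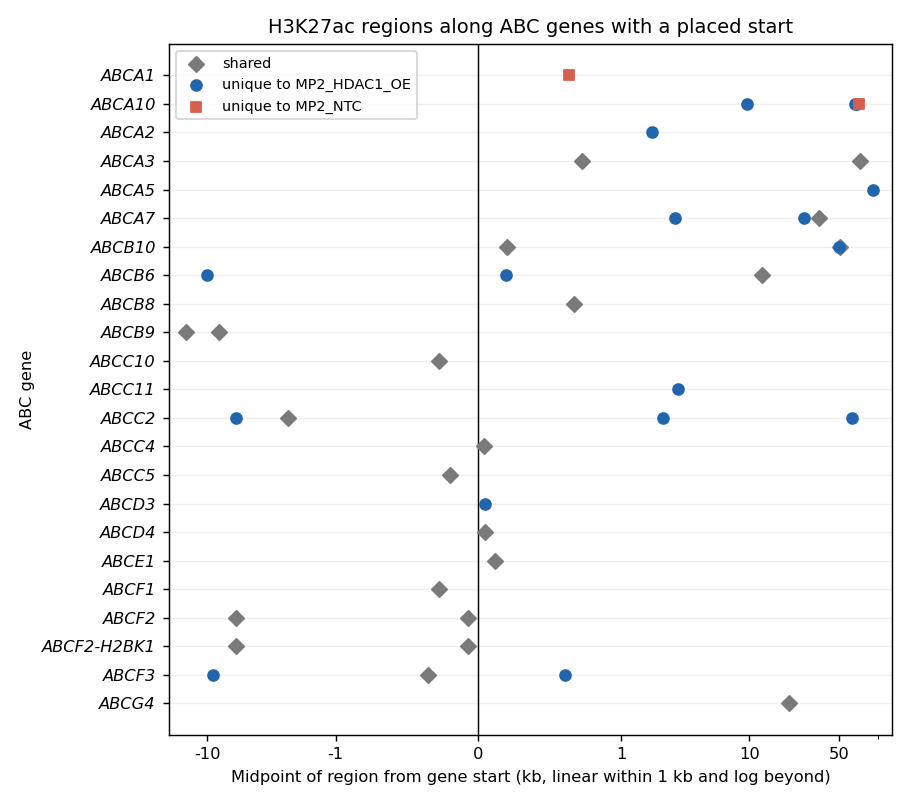
Midpoint of each H3K27ac region from the gene start (horizontal axis, kb, positive into the gene, linear within 1 kb and log beyond) for the 23 ABC genes with a placed start and a region (vertical axis). Regions of the drug-efflux gene *ABCC2* lay on both sides of the start and none at it, whereas *ABCD3*, *ABCC4* and *ABCC5* had a single region at the start.

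The windows of the ABC genes held 49 distinct regions, made of 74 MP2_HDAC1_OE and 55 MP2_NTC peaks. Of these, 24 (49.0%) were shared, 18 (36.7%) were unique to MP2_HDAC1_OE and 7 (14.3%) were unique to MP2_NTC, beside 50.7%, 28.6% and 20.7% of all regions. By position, 19 were at a start, 16 were in a gene body and 14 were in the flanks. There were 15 regions nearer to another protein-coding gene than to an ABC start, 9 of them shared and 6 unique to MP2_HDAC1_OE. Counting only regions no farther from a gene's own start than from that of any other protein-coding gene, a restriction chosen after the data were seen, 23 ABC genes had a region, beside 49.9% of all protein-coding genes. Under it 8 ABC genes (17.4%) had one unique to MP2_HDAC1_OE, beside 14.6%, and 3 (6.52%) had one unique to MP2_NTC, beside 12.6%. All regions of *ABCC8*, *ABCG4*, *ABCB9*, *ABCC11* and *ABCA5* lay nearer to the start of a neighbour, which for *ABCA5* was another gene of its cluster.

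The unique regions were mostly of low rank. Those unique to MP2_HDAC1_OE had a median percentile of 41.8 (range 7.61 to 95.9), beside 41.6 for all regions unique to that line, and those unique to MP2_NTC had a median of 40.1 (20.6 to 68.4), beside 39.1. The distance from a unique region to the nearest peak of the other line ran from 31 to 180455 bp. The unique calls at *ABCB10*, at the start of *ABCF3* and of the MP2_HDAC1_OE and MP2_NTC peaks 162 bp apart in *ABCC3* (13.2 and 68.4) were lost when peaks up to 500 bp apart were merged, as was that of a flanking region of *ABCB6*, whereas those at the starts of *ABCD3*, *ABCB6* and *ABCA1* and those of *ABCA7* and *ABCC2* were not.

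Among the 24 shared regions, 13 ranked higher in MP2_HDAC1_OE and 11 in MP2_NTC, with a median difference of 3.41 points beside 1.51 for all 9477 shared regions. Of the 24, 6 (25%) ranked at least 20 points higher in MP2_HDAC1_OE, beside 19.7% of all shared regions. These were the starts of *ABCE1* (47.4 points), *ABCC4* (30.2), *ABCB8* (29.2) and *ABCA3* (20.8), and the regions near *RNPS1* in the window of *ABCA3* (45.0) and near *ARHGAP45* in that of *ABCA7* (23.3). Only the region at *ARL6IP4* in the window of *ABCB9* ranked at least 20 points higher in MP2_NTC (a difference of -59.3 points), which is 4.17% beside 14.7% of all shared regions. The next largest in that direction, all under 20 points, were the start of *ABCB10* (-14.5), the region inside *ABCC1* (-12.9), the region of *ABCG4* near *NLRX1* (-11.6) and the start of *ABCF3* (-9.85).

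**Figure D4:**
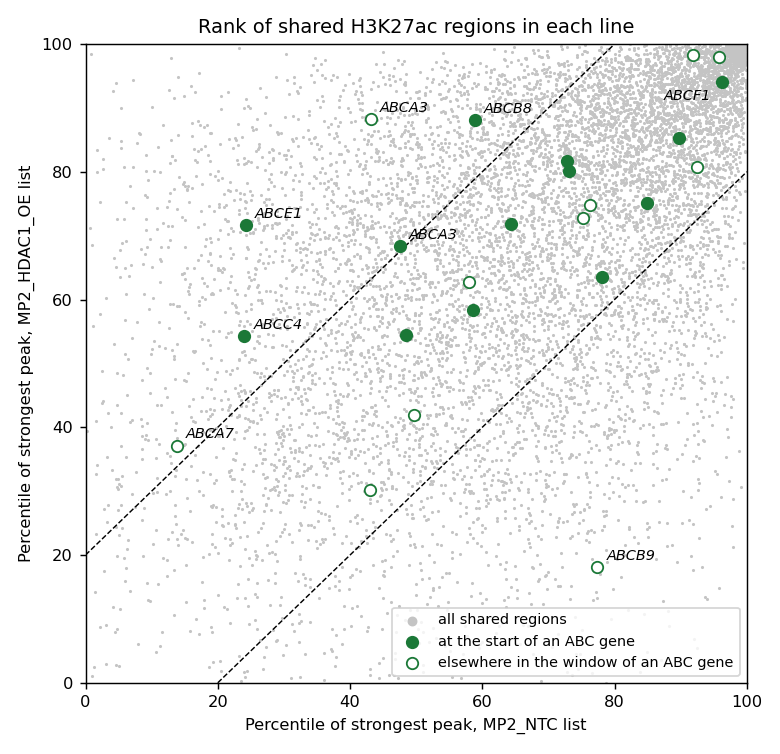
Percentile of the strongest peak of each shared region in MP2_NTC (horizontal axis) and MP2_HDAC1_OE (vertical axis), with all 9477 shared regions in grey, regions at ABC starts filled and other regions of ABC windows open. Dashed lines mark a difference of 20 points, above which 6 regions lie and below which 1 lies.

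The strongest peak of an ABC gene had a median percentile of 75.03 in MP2_HDAC1_OE (27 genes) and 64.3 in MP2_NTC (23 genes), beside 79.1 and 77.2 over protein-coding genes with a peak. At the start, the medians were 73.5 in MP2_HDAC1_OE (16 genes, range 50.5 to 94.1) and 61.5 in MP2_NTC (16 genes, range 24.02 to 96.2), beside 76.3 and 74.4. The ranges of the lines overlapped, and the lowest MP2_NTC values were those of *ABCC4*, *ABCE1* and *ABCA1*. *ABCF2* and *ABCF2-H2BK1*, which share a start, both enter these medians.

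ABC promoters with and without H3K27ac at the start differed in base composition, a property the choice of genes did not use. Of the 36 with a sequence, the 15 with a region had a median GC content of 65.7% and a median CpG ratio (observed over expected) of 0.906, and the 21 without one had 49.7% and 0.285. All protein-coding promoters showed the same order, with 65.7% and 0.866 where the start had a region and 58.3% and 0.464 where it had none. A GC box was held by 13 of the 15 ABC promoters with a region (86.7%) and by 6 of the 21 without one (28.6%), beside 73.6% and 43.9% of all protein-coding promoters. The 2 ABC promoters with a region and no GC box were those of *ABCC4* and *ABCE1*. *ABCF2* and *ABCF2-H2BK1* have the same promoter sequence, which enters the 15 and the 13 under both names.

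Among the promoters without a region, at the starts used here, *ABCB1* had a GC content of 37.7% and a CpG ratio of 0.102. Those of *ABCG2* were 40.3% and 0.247, and those of *ABCC2* 45.0% and 0.066. Others without a region had promoters rich in GC or CpG, such as *ABCA5* (76.3% and 1.03), *ABCA7* (70.0% and 0.789), *ABCG4* (68.3% and 0.770), *ABCC6* (69.0% and 0.749), *ABCB9* (75.3% and 0.579) and *ABCC9* (49.7% and 0.976). The AP-1 motif (TGANTCA) was in 2 ABC promoters, *ABCA5* and *ABCB11*, beside 5.75% of all protein-coding promoters, and the nuclear receptor motif (AGGTCA) was in 2, beside 11.7%. A single start per gene was available, so alternative promoters were not examined. For *ABCB1* and *ABCG2* that start was the outer end of the annotated gene, of 210279 and 141363 bp. Any promoter further inside these genes may differ in composition.

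**Figure D5:**
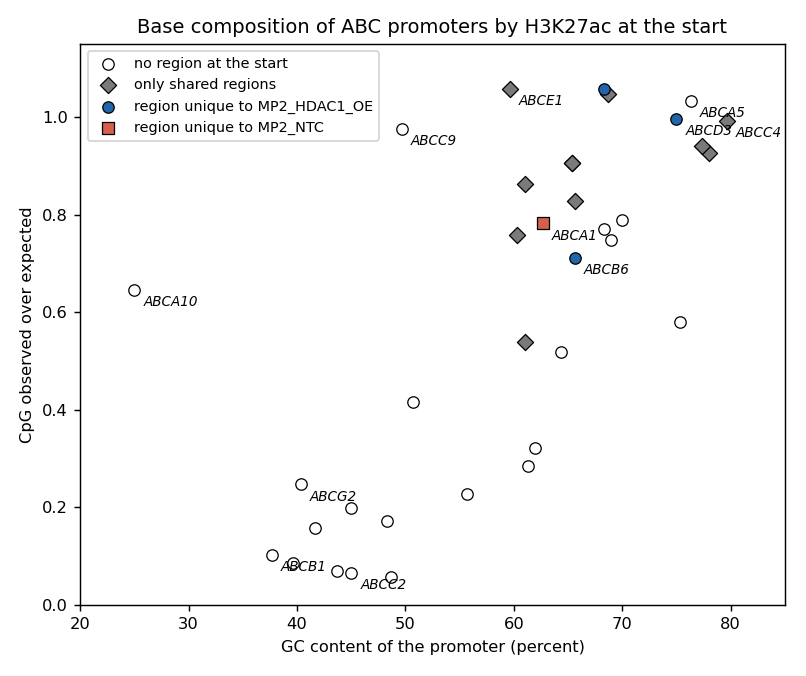
GC content (horizontal axis, percent) and CpG observed over expected (vertical axis) of the 300-base promoter at the single start used for each of 36 ABC genes, by the H3K27ac region at the start. The promoters with a region lie at a CpG ratio of 0.538 or above, and *ABCB1*, *ABCG2* and *ABCC2* lie at 0.247 or below.

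Of the 3 ABC proteins with other symbols, the antigen peptide transporters *TAP1* (73.0 in MP2_HDAC1_OE and 46.1 in MP2_NTC) and *TAP2* (81.6 and 81.4) had a shared region at their start, and the chloride channel *CFTR* had no region. Of 11 nuclear receptors known to control ABC genes, 4 had a region at their start, beside 46.8% of all protein-coding genes. In the window 7 had one, beside 58.5%. The starts with a region were those of *NR1H2* and *NR1H3*, the liver X receptors that control *ABCA1* and *ABCG1*, and of their partners *RXRA* and *RXRB*. At the start of *NR1H3* a region unique to MP2_HDAC1_OE lay beside a shared one, and those of *NR1H2*, *RXRA* and *RXRB* had only shared regions. *NR1I2*, the pregnane X receptor that controls *ABCB1*, had no region, and neither did *PPARG*, *PPARD* or *VDR*.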

How the data were processed

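H3K27ac ChIP-sequencing was performed with 75 bp single-end reads and analysed by the authors with published ENCODE protocols. The submitters' processing notes name BWA 0.7.12, Picard 1.88, SAMtools and hg38, and the peak caller is not given in the sources used here. The authors deposited 1 list of reproducible peaks (IDR optimal set) per line over its 2 H3K27ac samples. Each deposited peak has an interval, a signal and a score. The signal was used to rank peaks within a list, and the deposited score and the control samples were not used.

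Genes came from a RefSeq table (GRCh38.p14) and promoters from RefSeq on the same assembly. The table has no transcripts, so exons and introns were not told apart. Depth is unknown because the lists hold no counts. Merging, windows, classes and ranks were computed with Python 3.11.15, numpy 2.4.6 and pandas 2.3.3, intervals with statsmodels 0.14.6 and plots with matplotlib 3.10.9. The steps were tested on simulated data.

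The genes and lists were chosen with earlier results of these data known. Named with values were the drug-efflux genes, genes whose regions were all unique to 1 line, the 5 highest-ranked starts per list, genes with a unique region at the start, and the 5 shared regions with the largest rank difference in each direction. Other ABC genes were given values to account for the members, except that 2 members enter the counts and are not reported by name here. Alternatives covered the overlap, gaps, peak thresholds, windows, read-through genes and rank rules.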

Additional observations from a re-analysis of the deposited data

How the results depend on the processing

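No paired analysis was possible because each deposited list pools both samples of a line, and for the same reason no sample could be left out. Of 67 alternative values for 10 results, 50 stayed within 1.5 times the count or the spread set for them, and 17 moved. When single peaks had to overlap by 50% of both, 21 ABC genes (45.7%, beside 38.1% of all protein-coding genes) had a region unique to MP2_HDAC1_OE and 15 (32.6% beside 35.3%) one unique to MP2_NTC. With 50 kb either side these were 20 (43.5% beside 36.6%) and 13 (28.3% beside 33.1%). At the start, the genes with a region unique to MP2_HDAC1_OE were 9 under the 50% overlap (19.6% beside 24.9%), 5 within 2 kb (10.9% beside 11.6%) and 6 with the top 75% of peaks (13.0% beside 10.5%), where *ABCC4*, *ABCC5* and *ABCE1* joined them. Those unique to MP2_NTC were 6 under the 50% overlap (13.0% beside 22.8%). With the outer end of the gene as the start, chosen after the data were seen, *ABCD3* lost its region at the start and *ABCB9* gained a shared one. Of the shared regions, 3 ranked higher in MP2_HDAC1_OE at a difference of 30 points (12.5% beside 11.2% of all shared regions). Those ranked higher in MP2_NTC were 3 with mean percentiles (12.5% beside 19.4%), 3 with gaps of up to 500 bp merged (11.5% beside 13.7%) and 0 at starts alone (beside 13.8%). With equal numbers of peaks, 4 ranked higher in MP2_HDAC1_OE (16.7% beside 17.2%) and 2 in MP2_NTC (8.33% beside 18.0%). The median percentile in MP2_HDAC1_OE was 73.5 at the start, 72.3 with equal numbers of peaks and 71.9 in the gene body, and in MP2_NTC it was 61.5 at the start. With 1 list per line, differences between the lines cannot be told apart from differences between list depths or cultures. A region just outside the 10 kb window, 10475 bp from *ABCB8* (59.9 in MP2_HDAC1_OE and 86.0 in MP2_NTC), and one just inside, 9639 bp from *ABCB6* (45.6 in MP2_HDAC1_OE), show where the window fell.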
